A study of Mus musculus with 27 samples.

Results

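Small RNAs of mouse cortical neurons in primary culture (mCtx) were compared between the nucleoplasm, taken as soluble nucleoplasmic RNA, and the cytoplasm. The comparison uses 6 of the 27 libraries of the series, 3 of each fraction, and all 1013 entries of the deposited expression table. An entry is 1 annotated small RNA or 1 genomic copy of it, and the table gives its read count scaled to the size of each library (RPM). Of the 1013 entries, 303 were listed at 0 in all 6 libraries and 710 above 0 in at least 1.

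The series fractionated 3 kinds of mouse cells into chromatin, nucleoplasm and cytoplasm, each in triplicate, to follow small RNAs during neuronal differentiation. The other cells are the E14 line of embryonic stem cells (mESC) and a line of neural progenitors established by the laboratory (mNPC). The neurons carried no genotype or treatment label, were kept for 5 days on dishes coated with poly-L-lysine, and bear the sample type label E15D5, whose meaning the labels do not give. RNA below 200 nt was selected, rRNA was removed, and libraries of 120 to 160 bp were cut from a gel and read as 100 bp single ends. Cytoplasmic RNA was extracted with Trizol LE, as the label spells it, and nucleoplasmic RNA with Trizol, so fraction and reagent cannot be told apart. The labels call the libraries biological replicates without saying that they came from separate cultures, so a p-value here measures how far these libraries scatter, and that scatter may be technical. A primary cortical culture can hold cells other than neurons, and in bulk samples fewer cells of a type and less RNA per cell cannot be told apart.

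As background, the small RNAs measured here finish their work in different places. Small nucleolar RNAs (snoRNAs) stay in the nucleus, where those with C and D boxes guide ribose methylation of ribosomal and spliceosomal RNA and those with H and ACA boxes guide pseudouridylation. Transfer RNAs (tRNAs) are made and trimmed in the nucleus and exported to carry amino acids to ribosomes. MicroRNAs (miRNAs) are cut from hairpins, first in the nucleus and then in the cytoplasm, where the arm that is kept in an Argonaute protein directs repression of messenger RNAs. Mature miRNAs have also been found in the nuclei of many cells.

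The miRNAs on which the comparison turns are printed first, from the RefSeq annotation of GRCm38.p6, with the seed (bases 2 to 8, which pair with targets) in capitals. The let-7 pair is shown because its members share a seed and were called in opposite directions with RPM as deposited. Positions are counted from 1 at the 5′ end of let-7c-5p, and the substitutions to let-7e-5p are U9G and G19A, both outside the seed.
let-7c-5p, lower in nucleoplasm, chr15:85706616-85706637, + strand: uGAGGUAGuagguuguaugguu
let-7e-5p, higher in nucleoplasm, chr17:17830366-17830387, + strand: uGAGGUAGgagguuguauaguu
The next 3 are shown because they share another seed and were all lower in nucleoplasm with RPM as deposited.
miR-25-3p, lower, chr5:138165332-138165353, − strand: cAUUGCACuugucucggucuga
miR-92a-3p, lower, chr14:115044476-115044496, + strand: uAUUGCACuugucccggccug
miR-92b-3p, lower, chr3:89227126-89227147, − strand: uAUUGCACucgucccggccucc
The last 3 had some of the widest differences of the class.
miR-138-5p, higher, the copy at chr8:94324312-94324334, + strand: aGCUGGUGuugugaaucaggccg
miR-434-3p, lower, chr12:109594565-109594586, + strand: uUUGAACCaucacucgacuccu
miR-672-5p, lower, chrX:104116228-104116250, − strand: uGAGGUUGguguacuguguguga

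Of the snoRNAs higher in nucleoplasm, 4 that are described singly below are printed from the GENCODE M21 annotation of GRCm38, followed by Snord104, which went the other way. Capitals mark an exact match to the C box letters TGATGA, where there is one, and the last match to the D box letters CTGA.
Snord52, chr17:34950952-34951017, − strand: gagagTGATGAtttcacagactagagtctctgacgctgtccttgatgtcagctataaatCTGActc
Snord57, chr2:130278016-130278087, + strand: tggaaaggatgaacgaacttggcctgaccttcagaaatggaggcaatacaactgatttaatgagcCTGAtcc
Gm22680, chr19:8725341-8725409, + strand: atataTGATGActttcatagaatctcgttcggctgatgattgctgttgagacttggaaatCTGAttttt
Snord69, chr14:31014287-31014366, − strand: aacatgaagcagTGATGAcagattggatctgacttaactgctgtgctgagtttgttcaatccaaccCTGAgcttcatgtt
Snord104, chr11:106500993-106501062, + strand: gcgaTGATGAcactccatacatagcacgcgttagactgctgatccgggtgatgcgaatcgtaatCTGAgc

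Before the values, several properties of the libraries bear on what follows. The lowest RPM above 0 was between 5.16 and 8.42 in nucleoplasm and 18.6, 9.31 and 8.40 in cytoplasm 1, 2 and 3, and 527 to 576 entries were above 0 in nucleoplasm against 383, 486 and 506 in cytoplasm. Read totals are not given in the table, but 59.3 to 67.7% of each library's values under 200 steps are whole multiples, within 0.02, of a step that goes 10 times into its lowest value. If such a step is 1 read, depth (reads, in units of 1e+06) was 1.19 to 1.94 in nucleoplasm and 0.537, 1.07 and 1.19 in cytoplasm 1, 2 and 3. Cytoplasm 1 stood apart: across the 299 entries at or above 18.6 RPM in all 6 libraries, its log2 RPM correlated with cytoplasm 2 and 3 at Pearson's r of 0.939 and 0.949, against 0.995 between those 2 and 0.982 to 0.993 within nucleoplasm. An RPM is a share of a library, not an amount, so a rise of 1 class lowers the others.

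An exact 0 is not always a low value in this table. With 100 RPM as a high value, 8 of 274 nucleoplasm entries and 26 of 286 cytoplasm entries held both a 0 and a high value among the 3 libraries of 1 fraction. The mature arm miR-21a-5p, for example, had 2473, 3176 and 3133 RPM in nucleoplasm 1, 2 and 3 and 0, 3129 and 2743 in cytoplasm 1, 2 and 3, while its hairpin entry was at 3451 RPM in cytoplasm 1 and at 0 in the other 5. An entry is therefore called "listed at 0" below, with no fold against it. RNAs with several identical genomic copies were mostly listed at nearly the same value at each copy: 20 of 25 such names had copies within 10% of each other.

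By class, miRNA entries held nearly all of the listed RPM in both fractions. Their share was 95.8, 95.8 and 96.2% in nucleoplasm 1, 2 and 3 and 89.2, 87.9 and 88.2% in cytoplasm 1, 2 and 3. The fractions did not overlap, and nucleoplasm was 7.48 percentage points higher on average, or 2.30 points with each multi-copy RNA counted once.

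The tRNA share was 2.37, 2.20 and 2.40% in nucleoplasm and 10.6, 11.9 and 11.6% in cytoplasm. It was lower in every nucleoplasm library than in any cytoplasm library: the mean difference was −9.01 points, or −4.57 with each RNA once. The snoRNA share was 1.40, 1.60 and 1.12% in nucleoplasm against 0.0622, 0.0541 and 0.0529% for cytoplasm. The mean ratio was 24.3, and again the groups did not overlap. For each of these shares the two-sided exact permutation test over the 6 libraries gave p = 0.1, the smallest that 20 assignments of 3 against 3 allow, so the design cannot reach 0.05.

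The rarer classes are given as values without a test. Small nuclear RNAs (snRNAs) held 0.148, 0.154 and 0.114% of the listed RPM in nucleoplasm and 0.00816, 0.00153 and 0.0106% in cytoplasm. Ribosomal RNA held 0.0808, 0.0934 and 0.0736% in nucleoplasm and 0, 0.0024 and 0.0469% in cytoplasm. Entries named for PIWI-interacting RNAs (piRNAs) held 0.102 ± 0.0294% (SD, n = 3) in nucleoplasm and 0.107 ± 0.0258% (SD, n = 3) in cytoplasm, with overlapping libraries. Fragments of tRNAs (tRFs) held 0.0569 ± 0.0057% in nucleoplasm and 0.0354 ± 0.00468% in cytoplasm (SD, n = 3 each), without overlap.

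**Figure D1:**
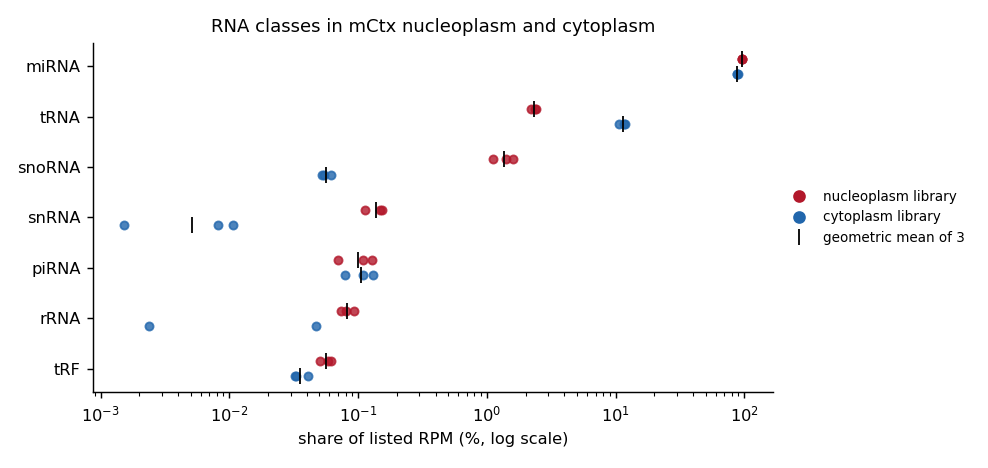
Share of the listed RPM (percent, log scale) that each RNA class held in the 3 nucleoplasm and 3 cytoplasm libraries of mCtx; points are libraries, bars are geometric means of 3, and a library at 0 (cytoplasm 1 for rRNA, which has no bar) is not drawn. The snoRNA points of nucleoplasm lie between 1.12 and 1.60%, those of cytoplasm between 0.0529 and 0.0622%, and tRNAs lie the other way round.

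Each entry was then tested. Values under a common floor of 18.6 RPM, the highest of the 6 libraries' lowest values, were set to it, 0 included, so that a difference cannot arise from the lower floors of the deeper libraries. An entry at or above that floor in at least 3 of the 6 libraries was tested, which kept 459 and left 554 untested. With limma and Benjamini-Hochberg adjustment over the 459, 88 entries were higher in nucleoplasm (19.2% of those tested) and 122 were lower (26.6%) at an adjusted p under 0.05. With copies that share a name counted once these were 85 higher and 75 lower. Differently named entries with nearly the same values still count apart, such as Snord50a and Gm24463, both at 88.6 RPM on average in nucleoplasm.

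The higher calls were 55 snoRNAs, 26 miRNAs, 3 snRNAs, 2 piRNAs, 1 rRNA and 1 tRF, and the lower calls were 83 tRNAs, 33 miRNAs, 2 snoRNAs, 2 tRFs and 2 piRNAs. In 43 of the 88 higher calls all 3 cytoplasm libraries were at 0, and in 13 of the 122 lower calls all 3 nucleoplasm libraries were. Such an entry passed the filter only through the other fraction and was set against a constant floor with no spread, so its p-value is not given below and its call is a description. The split depended on the scaling: 41.9% of all calls were higher with RPM as deposited, and 66.7% (166 higher, 83 lower) after the median entry of each library was aligned. That centring moved the median log2 difference of the entries above the floor in all libraries from −0.24 to 0.31, and miRNA calls went from 26 higher and 33 lower to 92 and 10. Without cytoplasm 1 the counts were 118 higher and 163 lower, and the former included all 88.

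**Figure D2:**
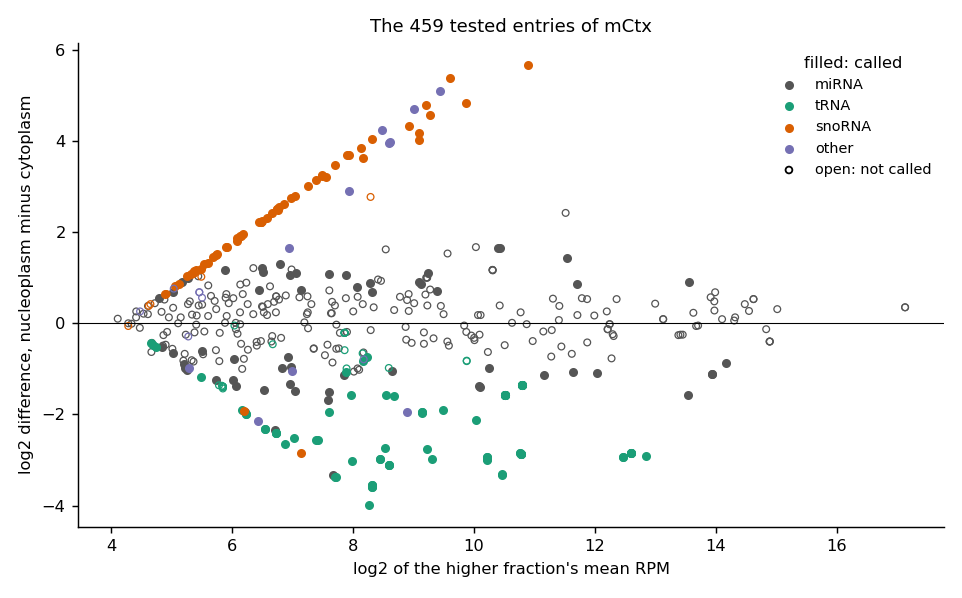
Log2 difference, nucleoplasm minus cytoplasm, against the log2 of the mean RPM in whichever fraction was higher, for the 459 tested entries; filled points were called (limma adjusted p under 0.05). The straight upper and lower edges are entries with the opposite fraction at the floor of 18.6 RPM, where the difference is set by that floor; called snoRNAs run along the upper edge up to 5.67, and called tRNAs lie below 0.

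The snoRNAs gave the widest differences. Of 239 snoRNA entries, 126 were above 0 in at least 1 library and 63 were tested; 55 were higher in nucleoplasm, 2 were lower and 6 were not called. Over all classes 19.2% of tested entries were higher. An entry near 0 in cytoplasm passed the filter only through nucleoplasm, so the count of 55 is a description of the entries that passed and not of all snoRNAs. In cytoplasm, 9 of the 55 were above 0 in every library, 3 were at 0 in 1 library, 3 in 2 libraries and 40 in all 3. The nucleoplasm means of those 40 ran from 29.7 to 316.3 RPM.

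Snord52, a C/D box snoRNA, had 2065, 2188 and 1429 RPM in nucleoplasm 1, 2 and 3 and 41.0, 39.1 and 30.2 in cytoplasm 1, 2 and 3. Every nucleoplasm library was far above every cytoplasm library. The difference was 5.67 on the log2 scale (SE 0.26, limma adjusted p = 2.36e-05), or 51.1-fold. The chromatin libraries of the same neurons held 20656 ± 271 RPM (SD, n = 3), above the nucleoplasm.

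Snord57 lies within Nop56, the gene of a core protein of C/D box particles. It had 830, 880 and 626 RPM in nucleoplasm and 18.6, 17.7 and 12.6 in cytoplasm, of which only cytoplasm 1 reached the floor. With cytoplasm at the floor the log2 difference was 5.37, and no p-value is given since the floor has no spread. Gm22680 lies within Snhg1, a noncoding host gene of several snoRNAs, and had 909, 1245 and 634 RPM in nucleoplasm and 28.9, 35.4 and 30.2 in cytoplasm. These groups stood apart by 4.83 on the log2 scale (SE 0.30, limma adjusted p = 3.44e-05). In chromatin Gm22680 was listed at 0 in all 3 libraries.

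Snord69, within Gnl3, the gene of the nucleolar protein nucleostemin, had 468, 535 and 637 RPM in nucleoplasm and 24.2, 32.6 and 33.6 in cytoplasm. The difference was 4.18 (SE 0.24, limma adjusted p = 3.44e-05), with no overlap. The other snoRNAs above 0 in all 6 libraries were Snord99, Snord64, Snord85, Gm23246 and Gm23212, with nucleoplasm means from 187.8 to 615.9 RPM, cytoplasm means from 18.7 to 33.5 RPM and log2 differences from 3.21 to 4.56. All of them were higher in every nucleoplasm library.

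**Figure D3:**
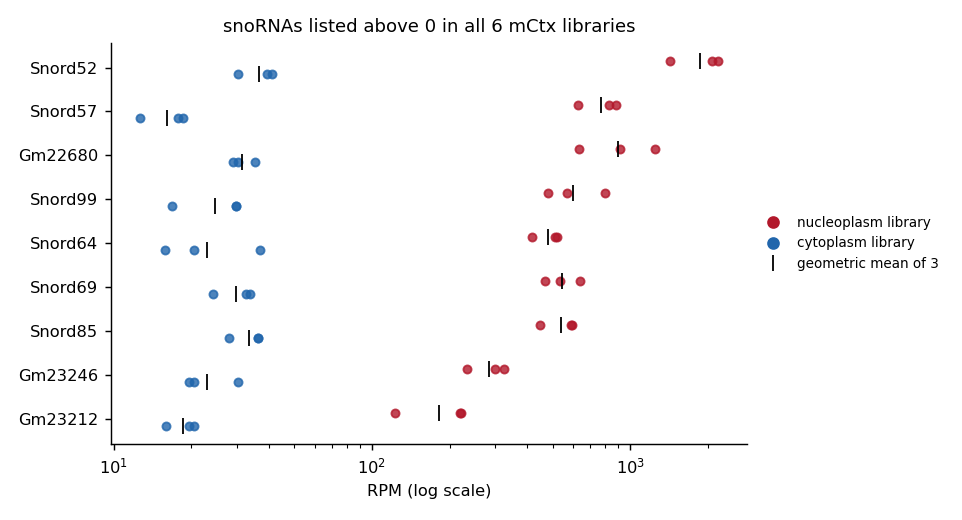
RPM (log scale) of the 9 snoRNAs listed above 0 in all 6 mCtx libraries and called higher in nucleoplasm; points are libraries and bars are geometric means of 3. The nucleoplasm points of all 9 lie above 120 RPM, and no cytoplasm point reaches 42 RPM.

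Of the snoRNAs listed at 0 in all cytoplasm libraries, the most abundant in nucleoplasm were Gm26247, Snord60 and Gm23969. Gm26247 had 344, 375 and 230 RPM there, Snord60 had 224, 331 and 182, and Gm23969 had 242.5, 245.4 and 229.1. All 3 were above the floor in every nucleoplasm library.

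By name, 29 of 33 tested Snord entries were higher and 1 lower, 24 of 27 tested Gm-named entries were higher and 1 lower, and 1 scaRNA, a Cajal body guide RNA, was tested and higher. Of the 26 entries with Snora names (H/ACA box), 7 were above 0 in at least 1 library and none was tested. The U3 snoRNA, which acts in the cleavage of the ribosomal RNA precursor, was represented by Rnu3a with 83.5, 28.7 and 22.7 RPM in nucleoplasm and 0 in each cytoplasm library. It was not called, and nucleoplasm 1 was well above the other 2.

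The annotation of GENCODE M21 placed 53 of the 55 higher snoRNAs inside a longer gene on the same strand, as it did 59 of the 63 tested. Of these, 9 lay in 8 genes of ribosomal proteins and 8 in 4 noncoding host genes (Snhg genes and Gas5). The 55 transcripts were 60 to 238 nt long with a median of 72, against a median of 127 for all 1507 annotated snoRNA transcripts. The letters TGATGA occurred in 38 of the 55 (69.1%) and in 393 of the 1507 (26.1%), searched on the transcript strand, and CTGA occurred in 54 (98.2%) and in 79.5%. Over the transcripts of all tested snoRNAs the shares were 70.3% and 98.4% and the median length 72 nt, close to those of the 55. These matches describe the letters of the transcripts and are not shown to be functional boxes.

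In chromatin, all 3 libraries were above all 3 nucleoplasm libraries for 42 of the 55, and 6 of the 55 were listed at 0 in all 3. For those 6 the zeros alone put chromatin below nucleoplasm, and such a 0 may not be a low level. Gm22680, 1 of the 6, had 0, 14400 and 38150 RPM in chromatin 1, 2 and 3 of mNPC.

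Only Snord104 and Gm25855 were lower in nucleoplasm. Snord104 had 207, 119 and 97.4 RPM in cytoplasm and was listed at 0 in each nucleoplasm library. Its chromatin mean was 23961 ± 1930 RPM (SD, n = 3), and in the nucleoplasm of mNPC it had 3588, 4334 and 0 RPM, so the 0 in mCtx nucleoplasm may not be a low level. Gm25855 had 99.7, 61.5 and 58.8 RPM in cytoplasm and 0 in nucleoplasm and chromatin. It lies within Snhg1, where 3 of the 5 tested snoRNAs, Gm22680 among them, were higher.

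Of 27 snRNA entries 4 were tested and 3 were higher. Rnu12, the U12 snRNA of the minor spliceosome, had 414, 388 and 267 RPM in nucleoplasm and was listed at 0 in all cytoplasm libraries. The snRNA entry Gm24265 had 453, 461 and 250 RPM in nucleoplasm and 39.8, 0 and 0 in cytoplasm, and its near copy Gm24407 had 453, 467 and 252 against 39.8, 0 and 0. Both were higher with the cytoplasm zeros set to the floor, which narrows the spread there, so no p-value is given. Rnu7, the U7 RNA that acts in histone messenger RNA processing, had 34.5, 42.6 and 21.2 RPM against 0, 0 and 17.5 and was not called. Its fractions did not overlap, but all its cytoplasm values were under the floor, so no p-value is given.

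The 5.8S ribosomal RNA entry n-R5-8s1 had 639, 828 and 623 RPM in nucleoplasm and 0, 23.3 and 0 in cytoplasm, and was higher. Its cytoplasm zeros were set to the floor, which narrows the spread there, so no p-value is given. It was the only rRNA entry of 22 that was tested, and rRNA had been removed from the RNA before the libraries were made.

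The tRNAs were the main group lower in nucleoplasm. Of 193 tRNA entries 105 were tested; 83 were lower, none was higher and 22 were not called, where 26.6% of all tested entries were lower. Because copies repeat each other, the tested entries stand for 45 tRNAs distinct by name, of which 38 were lower. In 13 of the 83 all nucleoplasm values were under the floor, and 9 of these were at 0 in every nucleoplasm library. They passed the filter only through cytoplasm, so they could only be lower and their calls are a description. Of the 73 tRNA entries above the floor in all libraries 67 were lower. The median log2 difference of the 73 was −2.56, against −0.24 for all 299 such entries. After centring on the median entry 68 tRNA entries were lower and none higher.

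Counted by amino acid, every tested entry was lower for Gly (18 of 18), Leu (9 of 9), His (8 of 8), Gln (4 of 4), Arg (3 of 3), Met (2 of 2) and Ser (1 of 1). Val (15 of 16), Lys (14 of 18), Tyr (3 of 4) and Glu (6 of 13) had members that were not called. The initiator iMet (0 of 8) and the selenocysteine tRNA SeC (0 of 1) had no member called. At 0 in every nucleoplasm library were all 3 lower Arg and all 3 lower Tyr entries, 2 lower Lys and 1 lower Met. Another 2 Gln, 1 Gly and 1 Val entries called lower were wholly under the floor in nucleoplasm.

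Summed over the copies of each anticodon, and with miRNA arms summed in the same way, 330 sums were tested, of which 89 (27% of those tested) were higher and 43 (13%) lower. Of 40 anticodons 20 were tested and 16 were lower. Among the 15 whose sums were above the floor in every library, 14 were lower and none was higher. Another 19 anticodons were at 0 in all nucleoplasm libraries and above 0 in at least 1 cytoplasm library, and no anticodon showed the opposite pattern.

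Leu-CAG, a leucine tRNA read by 9 entries, summed to 206, 173 and 217 RPM in nucleoplasm 1, 2 and 3 and to 3091, 2279 and 2239 in cytoplasm 1, 2 and 3. Nucleoplasm was lower by 12.7-fold (log2 −3.66, SE 0.22, limma adjusted p = 1.33e-05), without overlap. Gln-TTG summed to 72.5, 30.5 and 28.0 RPM against 584, 569 and 755, with nucleoplasm 1 above the other 2 nucleoplasm libraries but far below cytoplasm. Its log2 difference was −4.00 (SE 0.39, limma adjusted p = 0.000111).

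Val-CAC, a valine tRNA, summed to 5151, 4446 and 4586 RPM in nucleoplasm and 25117, 39542 and 36248 in cytoplasm. The difference was −2.81 (SE 0.24, limma adjusted p = 5.22e-05), or 7-fold. Its most abundant single entry, Val-CAC-2-1, had 967 ± 76.7 RPM in nucleoplasm and 7355 ± 1770 in cytoplasm (SD, n = 3 each). Glu-TTC summed to 971, 794 and 911 RPM against 6572, 7466 and 8690, a difference of −3.08 (SE 0.20, limma adjusted p = 1.66e-05).

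His-GTG summed to 1211, 1407 and 1666 RPM in nucleoplasm and 22214, 7734 and 7800 in cytoplasm. Cytoplasm 1 was far above the other 2, and all 3 were above nucleoplasm (log2 −2.96, SE 0.42, limma adjusted p = 0.000844). Gly-GCC summed to 4541, 4486 and 6294 RPM against 15887, 14478 and 17072, a smaller difference of −1.65 (SE 0.22, limma adjusted p = 0.000594). Lys-CTT summed to 5582, 5539 and 4810 RPM against 6254, 19475 and 17208, with cytoplasm 1 close to nucleoplasm, and lay at the edge of the threshold (log2 −1.27, SE 0.43, limma adjusted p = 0.0494).

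SeC-TCA, the tRNA that inserts selenocysteine, was the exception among the 15. It had 64.0, 56.5 and 69.3 RPM in nucleoplasm and 56.2, 72.0 and 68.9 in cytoplasm, with overlapping libraries (log2 −0.05, SE 0.22, limma adjusted p = 0.864). The remaining 7 of the 14 lower anticodons (Met-CAT, Leu-CAA, Gly-CCC, Val-AAC, Ser-CGA, Lys-TTT and Tyr-GTA) had log2 differences from −3.28 to −1.28.

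**Figure D4:**
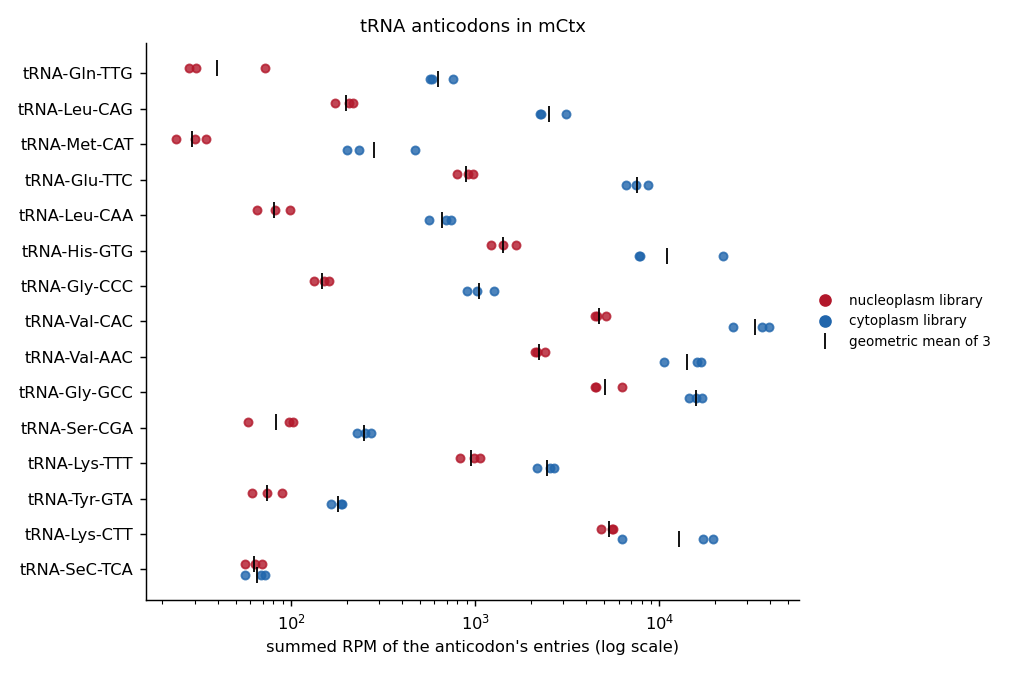
Summed RPM (log scale) of the entries of each tRNA anticodon, for the 15 anticodons above the floor in all 6 mCtx libraries; points are libraries and bars are geometric means of 3. Cytoplasm lies to the right of nucleoplasm for every anticodon but SeC-TCA; for Lys-CTT the lowest cytoplasm point, 6254 RPM, is close to the nucleoplasm points.

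Several anticodons rested on cytoplasm 1. Glu-CTC summed to 419, 247 and 509 RPM in nucleoplasm and to 6444, 0 and 0 in cytoplasm. Gln-CTG was listed at 0 in nucleoplasm and at 776, 0 and 0 RPM in cytoplasm. The initiator iMet-CAT summed to 174, 0 and 92.9 RPM against 0, 757 and 615, and without cytoplasm 1 all 8 of its entries were lower. Without that library 96 tRNA entries were lower and 6, all copies of Glu-CTC, were higher. Arg-CCT was at 0 in every nucleoplasm library and at 482, 208 and 264 RPM in cytoplasm.

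Fragments of tRNAs did not all follow the tRNAs. Of 34 tRF entries 8 were tested, of which 1 was higher (12.5%, against 19.2% of all tested entries) and 2 were lower (25%, against 26.6%). The fragment from the 3′ end of Tyr-GTA-6-1 had 293, 232 and 207 RPM in nucleoplasm and 0, 41.9 and 43.2 in cytoplasm, and was higher (log2 2.90 with the 0 at the floor, SE 0.37, limma adjusted p = 0.000613). Its own parent entry, Tyr-GTA-6-1, was not called (log2 −0.46, or 0.10 after centring). The sum of the anticodon was lower (log2 −1.28), but the 3 Tyr entries called lower were other copies, each at 0 in nucleoplasm. The 3′ fragment of Ala-AGC-2-1 had 57.3, 70.5 and 53.2 RPM against 164, 121 and 94.2 (log2 −1.04, SE 0.27, limma adjusted p = 0.0183), and lost its call after centring on the median entry (log2 −0.49). The library window cannot separate a tRF from a partial read of a tRNA, so the 2 kinds of entry may share reads.

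Of the 15 piRNA-named entries, which lie in part within other RNAs, 5 were tested. Entry piR_005109, within an intron of Cdk8, had 626, 624 and 293 RPM in nucleoplasm and was listed at 0 in cytoplasm. Entry piR_000935 lies within Rny1, the gene of the Y1 RNA of Ro particles, and had 175, 121 and 86.8 RPM against 461, 551 and 408. Its log2 difference was −1.94 (SE 0.31, limma adjusted p = 0.00167), without overlap. The other calls were piR_032901, higher, and piR_000818, at 0 in nucleoplasm and at 52.8, 115 and 91.5 RPM in cytoplasm.

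The miRNAs divided. Of 483 miRNA entries 273 were tested; 26 were higher (9.52% of them), 33 were lower (12.1%) and 214 were not called. Both shares lie below the 19.2 and 26.6% over all tested entries. The median log2 difference of the 215 miRNA entries above the floor in all libraries was 0.09. After centring on the median entry the class had 92 higher and 10 lower calls, and with RPM scaled to miRNA reads 24 higher and 34 lower, so the balance of directions within the class rests on the scaling.

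The counts also rested on single libraries. Leaving out nucleoplasm 1, nucleoplasm 2 or cytoplasm 2 left 13, 11 and 17 higher miRNAs, leaving out nucleoplasm 2 or 3 left 16 and 20 lower ones, and leaving out cytoplasm 1 gave 46 higher and 60 lower. All 26 higher calls were among those 46.

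The most abundant entries differed little. The first of the 2 copies of miR-181a-5p had 123836, 137528 and 168794 RPM in nucleoplasm 1, 2 and 3 and 102789, 115769 and 117083 in cytoplasm 1, 2 and 3, and the second differed from it by 3 RPM or less in each library. Although the libraries did not overlap, miR-181a-5p was not called (log2 0.35, SE 0.21, limma adjusted p = 0.211), but it was higher after centring (log2 0.90, limma adjusted p = 0.00995). The next most abundant, miR-22-3p, had 32571, 36259 and 30542 RPM against 15969, 33259 and 35966, with cytoplasm 1 low and the fractions overlapping (log2 0.31, SE 0.34, limma adjusted p = 0.486). Without cytoplasm 1 its difference was −0.07, and after centring 0.86 (limma adjusted p = 0.0412).

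Among miRNAs higher in nucleoplasm, miR-138-5p, a miRNA of neurons known for limiting the size of dendritic spines, had 1057, 1192 and 1791 RPM in nucleoplasm and 465, 331 and 461 in cytoplasm at its copy on chromosome 8. All nucleoplasm libraries were above all cytoplasm libraries, by 3.17-fold (log2 1.66, SE 0.28, limma adjusted p = 0.00208). The copy on chromosome 9 gave the same log2 difference. The difference became 2.22 after centring and 1.75 without cytoplasm 1.

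Within the let-7 family, known for its rise during differentiation, members with 1 seed were called in different directions with RPM as deposited. Of the family's 19 entries, miR-98 included, 13 were tested. Of these 1 was higher (7.69%, against 19.2% of all tested entries) and 2, both copies of let-7c-5p, were lower (15.4%, against 26.6%). let-7e-5p had 3833, 2492 and 2560 RPM in nucleoplasm and 1388, 1155 and 787 in cytoplasm (log2 1.43, SE 0.29, limma adjusted p = 0.00592). let-7c-5p had 7295, 6257 and 7622 RPM against 20724, 13890 and 12453 at its copy on chromosome 15 (log2 −1.12, SE 0.25, limma adjusted p = 0.00953). Both differences exceeded the spread between libraries, and neither pair of groups overlapped.

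The sequences of these 2 members, printed above, differ at 2 of 22 positions (U9G and G19A). The other members with the seed GAGGUAG were not called: their log2 differences were −0.49 for let-7b-5p, −0.05 for miR-98-5p, −0.02 for let-7a-5p, 0.09 for let-7f-5p, 0.13 for let-7i-5p and 0.53 for both let-7d-5p and let-7g-5p. After centring on the median entry the family had 3 higher and no lower calls, so the lower call of let-7c-5p did not hold under that scaling. How the authors assigned reads that fit several members of the family is not given in the sources used here, so these values can share reads.

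Members of another seed, chosen after their values were seen, were lower with RPM as deposited. miR-25-3p had 2066, 1795 and 1846 RPM in nucleoplasm and 6092, 3245 and 3275 in cytoplasm, with cytoplasm 1 highest (log2 −1.08, SE 0.29, limma adjusted p = 0.0199). miR-92a-3p had 1270, 948 and 824 RPM against 3181, 1897 and 1758 at its listed copy on chromosome 14 (log2 −1.14, SE 0.30, limma adjusted p = 0.0183). miR-92b-3p had 114, 99.1 and 95.5 RPM against 296, 185 and 211 (log2 −1.14, SE 0.26, limma adjusted p = 0.00952). All 3 carry the seed AUUGCAC, and in each case cytoplasm 1 was the highest library and nucleoplasm lay below cytoplasm. After centring on the median entry none of the 3 was called (log2 −0.53, −0.59 and −0.58, limma adjusted p = 0.252, 0.211 and 0.152), and the copy of miR-92a-3p not printed here was not called under either scaling.

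Over the miR-17 to 92 cluster and its paralogs, which promote proliferation in many tissues, 14 of 24 entries were tested, 2 were higher (14.3%, against 19.2% over all tested entries) and 4 lower (28.6%, against 26.6%). The higher ones were the 2 copies of miR-19b-3p, of which the first had 543.7 ± 54.6 RPM in nucleoplasm and 292 ± 38.5 in cytoplasm (SD, n = 3 each; log2 0.90, SE 0.21, limma adjusted p = 0.0116). The lower ones were miR-25-3p, miR-92a-3p, miR-106b-3p and miR-92a-1-5p. The entry miR-92a-1-5p, the opposite arm of a miR-92a hairpin, had 16.8, 15.1 and 14.7 RPM in nucleoplasm, all under the floor, and 101, 278 and 236 in cytoplasm. After centring on the median entry the list had 7 higher and 1 lower calls, so its balance turned; the lower call that remained was miR-92a-1-5p.

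Other miRNAs lower in nucleoplasm had lower levels or leaned on cytoplasm 1. miR-672-5p had 67.4, 53.4 and 52.6 RPM in nucleoplasm and 267, 154 and 154 in cytoplasm (log2 −1.68, SE 0.29, limma adjusted p = 0.00248). miR-434-3p had 3230, 3293 and 4080 RPM against 20954, 6619 and 8275, with cytoplasm 1 far above the rest (log2 −1.58, SE 0.43, limma adjusted p = 0.0229). Without cytoplasm 1 its difference was −1.07, and its call was lost after centring (log2 −1.02).

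miR-320-3p, which arises without the nuclear cleavage that other miRNA hairpins need, had 48.8, 37.2 and 56.5 RPM in nucleoplasm and 151, 130 and 114 in cytoplasm (log2 −1.48, SE 0.24, limma adjusted p = 0.00206). miR-106b-3p and miR-28a-3p were lower by similar amounts (log2 −1.50 and −1.46, limma adjusted p = 0.0111 and 0.0304), and both lost the call after centring. The groups did not overlap for any of these 3.

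**Figure D5:**
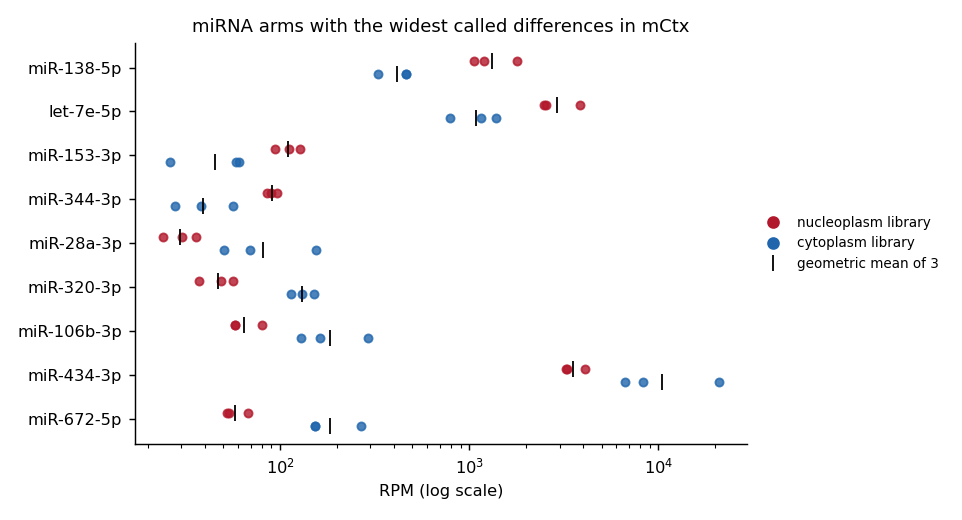
RPM (log scale) of the 9 miRNA arms with the widest called differences among those above the floor in all 6 mCtx libraries, with 1 copy drawn for miR-138-5p; points are libraries and bars are geometric means of 3. Nucleoplasm lies to the right for the upper 4 and to the left for the lower 5, and for miR-434-3p the rightmost cytoplasm point, 20954 RPM, is cytoplasm 1.

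Neuronal miRNAs were examined as a list (miR-124, miR-9, miR-128, miR-132, miR-137, miR-138, miR-129, miR-218, miR-153 and miR-7). Of 30 entries 26 were tested, standing for 15 distinct RNAs. Of the 26, 4 were higher (15.4%, against 19.2% of all tested entries) and 3 lower (11.5%, against 26.6%), or 3 and 2 distinct RNAs, and after centring 11 were higher and 3 lower. The median log2 difference of the 22 above the floor in all libraries was 0.55, against 0.09 for miRNA entries and −0.24 for all entries. Beside the copies of miR-138-5p, the higher ones were miR-153-3p, with 112, 127 and 94.5 RPM in nucleoplasm and 26.1, 60.5 and 58.8 in cytoplasm (log2 1.29, SE 0.37, limma adjusted p = 0.0265), and miR-137-3p, with 267.3 ± 43.9 against 156.1 ± 32.3 RPM (SD, n = 3 each; log2 0.79, SE 0.26, limma adjusted p = 0.0456). For miR-153-3p cytoplasm 1 was the lowest library, and without it the difference was 0.89.

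The arm miR-124-3p, a widely used marker of neurons, had 1374, 1537 and 897 RPM in nucleoplasm and 308, 731 and 749 in cytoplasm. The fractions did not overlap, but the difference was not called (log2 1.16, SE 0.41, limma adjusted p = 0.0534). Without cytoplasm 1, its lowest library, it was 0.74 and passed (limma adjusted p = 0.0198), as it did after centring (log2 1.72, limma adjusted p = 0.00649). The lower ones were opposite arms of low level: both copies of miR-124-5p, and miR-128-1-5p, which had 16, 20.1 and 20.6 RPM against 155, 76.4 and 83.1 (limma adjusted p = 0.000655). For miR-128-1-5p nucleoplasm 1 was under the floor and was set to it, which narrows the spread there. Both copies of miR-124-5p were wholly under the floor in nucleoplasm.

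The imprinted Dlk1-Dio3 domain on chromosome 12, a source of many miRNAs of the brain, had 71 entries. Of these 47 were tested, 7 were higher (14.9%, against 19.2% of all tested entries) and 4 lower (8.51%, against 26.6%), with a median log2 of 0.29 over 31. Both arms of miR-666 were higher, with miR-666-5p at 602 ± 89.2 against 278.5 ± 43.1 RPM (SD, n = 3 each; log2 1.11, limma adjusted p = 0.00592), as was miR-134-5p at 235.7 ± 20.6 against 116.9 ± 33.8 RPM (log2 1.05, limma adjusted p = 0.0184). miR-410-3p was lower, with 9213, 9538 and 10806 RPM in nucleoplasm and 25001, 14925 and 15583 in cytoplasm (log2 −0.87, SE 0.26, limma adjusted p = 0.0297). After centring, 19 members were higher and none lower.

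In the miR-30 family 8 of 10 entries were tested, of which 1 was higher (12.5%, against 19.2% of all tested entries) and 2 were lower (25%, against 26.6%). miR-30e-5p was higher, with 12234, 13509 and 10582 RPM in nucleoplasm and 4653, 6745 and 8523 in cytoplasm (log2 0.90, SE 0.27, limma adjusted p = 0.0322), and the opposite arms miR-30c-1-3p and miR-30c-2-3p were lower. After centring 2 members were higher and none lower. In the miR-181 family 10 of 11 were tested and only miR-181b-1-3p was called, lower (10%, against 26.6% of all tested entries). After centring that call was lost and 3 members were higher. In the miR-15 and miR-16 family 8 of 11 were tested and only miR-497a-5p was called, higher (12.5%, against 19.2% of all tested entries). It was at 59.1 ± 6.55 against 27.1 ± 8.93 RPM (SD, n = 3 each, log2 1.17, limma adjusted p = 0.0114). After centring 3 members of this family were higher.

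A short element at the 3′ end of miR-29b, AGUGUU, is known to direct it to the nucleus. Of 4 miRNA entries that hold these letters 2 were above 0 in any of the 6 libraries and none was tested. Both tested miR-29 entries were not called. Among arms with a sequence, median GC content was 50% for the 21 higher and 50% for the 25 lower ones, against 47.6% for all 215, with a median length of 22 nt in each set. The last base was A in 14.3% of the higher, 32% of the lower and 17.2% of all these arms, and G in 28.6, 8 and 24.7%; no test was made.

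The 2 arms of a hairpin were compared in 44 hairpins with both tested. The arm with the higher mean over the 6 libraries was higher in nucleoplasm in 4 and lower in 2, and the other arm was higher in 2 and lower in 9. Over all tested entries 19.2% were higher and 26.6% lower, and over tested miRNA entries 9.52 and 12.1%. Copies of miR-124 and of miR-9 count separately among the 44. After centring, the other arms miR-106b-3p, miR-28a-3p, miR-335-3p and miR-673-3p lost their lower calls, and the rest of the 9 kept them. The other arms miR-127-5p, miR-136-5p, miR-151-3p, miR-17-3p, miR-221-5p, miR-382-3p and the copies of miR-9-3p became higher. The balance of these arms therefore turned with the scaling. In 2 hairpins, miR-666 and miR-486a, both arms were called in the same direction, and in none were they called in opposite directions. The arm miR-486a-3p was listed at 0 in every nucleoplasm library, so its lower call was set against the floor and is a description. For miR-434 the 3p arm was lower while the 5p arm had 2677, 2478 and 2576 RPM against 1248, 3148 and 3732 (log2 0.07, SE 0.41, limma adjusted p = 0.905), with cytoplasm 1 low in the 5p arm and high in the 3p arm.

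Markers of the cells were read from the same lists. Neuron markers were well represented: 22 of 22 entries were above 0 in at least 1 library, summing to 49883, 41409 and 30970 RPM in nucleoplasm and 17453, 34094 and 35248 in cytoplasm. For astrocytes and oligodendrocytes 5 of 6 entries were above 0, summing to 344 to 458 RPM in nucleoplasm and 544 to 730 in cytoplasm, with miR-204-5p lower in nucleoplasm (log2 −1.04, SE 0.21, limma adjusted p = 0.00571). For microglia and blood 4 of 7 were above 0, summing to 378 to 525 RPM and to 1079 to 1426; both arms of miR-486a, a red cell miRNA, were lower in nucleoplasm, with miR-486a-5p at 416.9 ± 65.1 against 1098 ± 232 RPM (SD, n = 3 each). For endothelium and mesenchyme 8 of 11 were above 0, summing to 3602 to 4158 and to 2366 to 3108 RPM, and none of the 6 tested was called. After centring 4 of these 6 were higher, miR-204-5p was no longer called and 1 of the 2 miR-486a arms, miR-486a-3p, was. That arm was listed at 0 in every nucleoplasm library, so its lower call was set against the floor and is a description. Listed at 0 in all 6 libraries were miR-193a-3p of the glial list, miR-142a-3p, miR-150-5p and miR-155-5p of the microglia and blood list, and miR-10a-5p, miR-10b-5p and miR-145a-3p of the endothelial list. The part of such cells in the differences was not tested.

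Whether the fractions differed by other amounts in neurons than in the other cells was tested as an interaction in 18 libraries, with a floor of 42.4 RPM and 601 entries tested. Against mNPC, the difference was higher in mCtx for 42 entries (6.99%) and lower for 61 (10.1%). Against mESC it was higher for 55 (9.15%) and lower for 22%. Of 133 tRNA entries tested, 35 were lower and 7 higher against mNPC, and 64 lower and 7 higher against mESC, and 30 of the 51 entries that were lower against both were tRNAs. These 2 comparisons share the mCtx libraries. The 14 higher tRNA calls were copies of Arg-CCT, Pro-TGG and Ser-GCT against mNPC and of Leu-CAA, Ser-AGA and Tyr-GTA against mESC, each at 0 in every nucleoplasm library of mCtx. Among the entries above 0 in all 18 libraries, 33 tRNAs were lower and none higher against mNPC, and 47 were lower and none higher against mESC.

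The anticodon sums show the pattern. Gly-GCC summed to 5107 ± 1030 RPM in nucleoplasm and 15813 ± 1300 in cytoplasm of mCtx, to 5370 ± 420 and 2112 ± 271 in mNPC, and to 10877 ± 5440 and 7058 ± 1680 in mESC (SD, n = 3 each). Nucleoplasm was thus below cytoplasm in mCtx and above it in mNPC, and the mESC libraries overlapped. Its entry Gly-GCC-2-6 had an interaction of −2.78 against mNPC and −2.09 against mESC (log2, SE 0.49 each, limma adjusted p = 0.000797 and 0.00522). The tRNA share as a whole differed by −9.01 points in mCtx, −1.30 in mNPC and −0.626 in mESC.

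Val-CAC-2-1 differed between fractions by −2.90 in mCtx, −1.46 in mNPC and −0.42 in mESC, with interactions of −1.44 and −2.47 (log2, SE 0.38 each, limma adjusted p = 0.0145 and 0.000178). For Leu-CAG-1-2 the interaction was −0.16 against mNPC (SE 0.55, limma adjusted p = 1.0) and −1.82 against mESC (SE 0.55, limma adjusted p = 0.0217).

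Of 89 snoRNA entries tested, 5 had higher and 8 lower interactions against mNPC, and 9 and 28 against mESC. Over all 601 tested entries the shares were 6.99 and 10.1% against mNPC and 9.15 and 22% against mESC. Only 1 snoRNA was above 0 in all 18 libraries, and it was called against neither, so these counts rest on entries with zeros. Snord52 differed between fractions by 5.46 in mCtx and 5.11 in mNPC at this floor, an interaction of 0.34 (SE 0.44, limma adjusted p = 0.762), and by 3.99 in mESC (interaction 1.46, SE 0.44, limma adjusted p = 0.0210). The snoRNA share was higher in nucleoplasm by 1.32 points in mCtx, 1.88 in mNPC and 3.72 in mESC.

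For miRNAs, 25 interactions were higher and 14 lower against mNPC, and 27 higher and 29 lower against mESC, of 328 tested. Over all 601 tested entries the shares were 6.99 and 10.1% against mNPC and 9.15 and 22% against mESC. Among the 92 miRNA entries above 0 in all 18 libraries, 7 were higher and 7 lower against mNPC. Against mESC 1 was higher and 9 lower, so the counts were much smaller without entries that hold a 0. The interactions of let-7c-5p on chromosome 15 were −1.21 and −1.14 (log2, SE 0.40 each, limma adjusted p = 0.0487 and 0.0401). Its mNPC means were 6138 ± 1580 RPM in nucleoplasm and 5642 ± 389 in cytoplasm (SD, n = 3 each), so that there it did not differ beyond the spread. For miR-138-5p (chromosome 8) and miR-434-3p the interactions were called against both, but miR-434-3p was listed at 0 in every mNPC library of these fractions and miR-138-5p averaged 62.2 RPM or less in each. After centring on the median entry 152 interactions of all classes were higher and 39 lower against mNPC, and 98 and 91 against mESC, so the directions for miRNAs rest on the scaling here too.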

How the data were processed

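RPM values per entry were deposited by the authors as 1 table of the whole series, per the file headers. The submitters' labels describe the RNA preparation, but no source used here names the aligner, counter, annotation or divisor of the RPM. The members, lists and alternatives were chosen with earlier results of these data known. Values under the common floor (18.6 RPM) were set to it, log2 was taken, and entries at or above it in at least 3 of the 6 libraries were fitted in limma 3.58.1 (R 4.3.3) with intensity trend and robust settings, a mean per fraction and no replicate block, and called at a Benjamini-Hochberg adjusted p of 0.05. The fitting script was tested on simulated data. Shares of classes used the exact permutation test (scipy 1.17.1). Entries named were, within each class and direction, the 5 (miRNA, tRNA) or 3 with the widest called difference above the floor in all 6 libraries, the 3 most abundant called with 1 fraction under the floor, the 3 most abundant of the class, and examples of the lists, with the most abundant first; others, such as miR-21a-5p, the let-7 and seed AUUGCAC members, miR-434-5p, the anticodons at 0 and the entries of the interaction text, were chosen after their values were seen. Same-numbered libraries of the 2 fractions did not deviate together (r of deviations −0.32, 0.47 and −0.39). Sequences came from RefSeq and GENCODE M21 on GRCm38.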

Additional observations from a re-analysis of the deposited data

Results flagged for a closer look

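The nucleoplasm to cytoplasm difference was tested against that of the other cells by an interaction term in limma, and each set of entries called there is listed here for that reason. Against mNPC the difference was higher in mCtx for 6.99% of the 601 tested entries and lower for 10.1%. Against mESC it was higher for 9.15% and lower for 22%. The report gives the counts by class. No group has more than 3 libraries, so single outlying libraries were not tested for.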

How the results depend on the processing

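No alternative run reversed the sign of a class share or of a named entry that was called, but the balance of higher and lower calls turned with the scaling, and entries not called could change sign, as miR-22-3p did without cytoplasm 1. Of 44 named and called entries, 23 kept their call under every alternative that tested them. Counts that moved by over 1.5 times are given next, some with a count beside them that moved less. With the floor of all 27 libraries 31 snoRNAs were higher. With no filter 8 miRNAs were higher and 14 lower. With entries above the floor in all 6 libraries only, 29 were higher, 5 of them snoRNAs, since most of the others were at 0 in cytoplasm. Median centring gave 166 higher and 83 lower entries, with 92 miRNAs higher and 10 lower, and 191 interactions against mNPC. With log2(RPM + 1) and no floor, 116 were higher and 112 lower, which is within 1.5 times of the main counts. A fit of 27 libraries on log2(RPM + 1) gave 19 lower miRNAs. Summed entries gave 43 lower, 16 of them tRNA anticodons and 21 miRNAs. At least 9 of 18 libraries above the floor gave 104 interactions against mESC. The replicate numbers are not shown to pair the fractions; with a replicate block 17 miRNAs were higher, and all counts were 78 higher and 101 lower.

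Leaving out 1 library gave 72 to 118 higher and 93 to 163 lower entries, 54 to 58 higher snoRNAs, 69 to 96 lower tRNAs, 11 to 46 higher and 16 to 60 lower miRNAs, 80 to 130 interactions against mNPC and 150 to 184 against mESC. Shares then differed by 7.22 to 7.86 points (miRNA), 1.20 to 1.44 (snoRNA) and −9.39 to −8.75 (tRNA). Chosen after seeing the data, cytoplasm 1 left out with a lower floor called 28.1% of 491 tested entries higher, 1.57 times the number called with all libraries, and gave 50 higher and 62 lower miRNAs. Likewise, entries above 0 in all 6 libraries gave 33 higher, 9 of them snoRNAs, and in all 18 libraries 47 and 58 interactions. The miRNA share differed by 4.29 points when read directly from the RPM, not as a share of the listed RPM. With each RNA counted once, also chosen after seeing the data, the miRNA share differed by 2.30 points, snoRNA by 1.96 and tRNA by −4.57. Depth limits entries near the floor, and an unknown divisor limits any count test.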
